A study of Mus musculus with 15 samples.

Results

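The livers of second-generation (F2) male mice were set against those of first-generation (F1) males in 2 paternal lineages of perinatal malnutrition. The members were the 12 of 15 deposited arrays whose titles place them in a challenged lineage, 6 F2 and 6 F1, with lineage as the second factor. IUGR F2 pools came from adult male offspring of IUGR mice and ON F2 pools from adult male offspring of ON mice. The IUGR F1 males had met a 50% cut in calories in the womb, and the ON F1 males an excess of food while suckling. Each of the 4 groups had 3 arrays, and each array read a pool, taken here from the titles as 3 livers. The study asked whether expression patterns of the challenged males are found again in their sons. The 3 control pools mixed both generations, so they entered no comparison here. The F1 males met the challenge themselves and the F2 males did not, and the labels name no strain, exact age, litter, time of day or round of hybridisation. Generation, own exposure and any such difference between the generations therefore cannot be told apart. Whether pools of a group came from separate litters is not in the labels, and the p-values cover no more than the scatter among these pools.

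Adult liver makes fat from sugar after meals, burns fat and releases glucose between meals, and secretes most plasma proteins. Many of its genes follow the daily clock, and many differ between males and females through the pattern of growth hormone release. Values below are log2 RMA levels, a scale on which 1 unit stands for 2 times the array signal, and levels of different genes are not compared. Differences are F2 minus F1 averaged over the lineages, with the standard error from limma, a linear model that shares the estimate of spread across genes. A gene is said to be called, or to have risen or fallen, at a limma adjusted p below 0.05 over 18193 genes.

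Of 18193 genes, 556 were called between the generations (3.06%). Of these, 205 were higher (1.13%) and 351 lower (1.93%) in F2. An unadjusted p below 0.05 was reached by 1344 genes on the higher and 2665 on the lower side, 4009 in all, against 909.7 if no gene differed. The split between higher and lower depended on how the arrays were scaled, and the median difference of all genes was -0.03 as deposited. With each array centred on its own median, 319 of 477 called genes were higher and 158 lower, and after a second quantile normalisation 266 of 500 were higher and 234 lower. The differences were mostly small, with a median size of 0.34 among called genes, 35 of 205 risen and 49 of 351 fallen genes beyond 0.5, and 6 and 7 beyond 1. The 6 F2 pools lay wholly above the 6 F1 pools for 101 of the 205 risen genes, and wholly below them for 181 of the 351 fallen ones. Over all genes that held for 155 (0.852%) and 327 (1.8%). Of the 321 called genes with more than 1 probe set, only 185 had all their probe sets in the called direction, and 315 had the mean of their probe sets in it.

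The number of calls changed with single pools left out and with a clock score in the model. It was 94 without IUGR F1 pool 4 and 93 without IUGR F1 pool 6. It was 119, 122 and 192 without IUGR F2 pools 10, 11 and 12, and 260 and 133 without ON F2 pools 13 and 14. Without ON F1 pool 8 it was 368. Pool 5 was high in skeletal muscle genes (list median 0.43), pool 8 in interferon-stimulated genes (0.70) and pool 13 in exocrine pancreas genes (3.91), each relative to the F1 mean. Without these 3 pools there were 265 calls. A clock score, the mean of clock genes such as Dbp minus that of Arntl, Npas2 and Clock, averaged 0.35 ± 1.44 in F2 and -0.52 ± 1.17 in F1 pools (SD, n = 6 each). With this score as a covariate 25 genes were called, 16 higher and 9 lower, and all 25 were among the 556. All 556 genes kept their direction and stayed below an unadjusted limma p of 0.05 under that covariate. They had been selected on the same 12 arrays, which made this outcome likely beforehand, so it does not back the calls. The median size of the 556 was then 0.32 and their median standard error 0.075, against 0.34 and 0.068 without the covariate. With the lineages pooled, the signs of RNA length were alike in both generations. Actin 3' minus 5' probe sets stood at 2.03 ± 0.15 in F2 and 1.98 ± 0.15 in F1 pools (SD, n = 6 each). By lineage they were less balanced. Actin averaged 2.02 in IUGR F2 and 1.88 in IUGR F1 pools, and 2.03 in ON F2 and 2.08 in ON F1 pools. The GAPDH 3' minus 5' mean was likewise higher in F2 than in F1 within IUGR and lower within ON. In the 12 pools Xist was dim (3.75 to 4.44) and Eif2s3y of the Y chromosome bright (7.59 to 8.22), as in male tissue.

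The gene with the largest difference was Moxd1, a copper-dependent monooxygenase homologue that is higher in male than in female mouse liver. It stood at 10.77, 11.02 and 11.44 in IUGR F2 and at 11.37, 11.65 and 11.46 in ON F2 pools. The IUGR F1 pools had 8.65, 10.98 and 8.79 and the ON F1 pools 4.30, 6.36 and 8.29. The F2 pools lay close together at a high level, the F1 pools were spread over more than 6 units, and IUGR F1 pool 5 overlapped the F2 range. Moxd1 rose by 3.39 ± 0.56, a 10.5-fold difference (adjusted p = 0.0158), with 1.60 in the IUGR and 5.17 in the ON lineage. With the clock score as a covariate its adjusted p was 0.0645, and in the 21 other settings it stayed below 0.05.

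Pck1 and Asns, each with a rise of over 1, come next among the called members of the fixed lists. Pck1, the gene for the enzyme that commits carbon to glucose synthesis, stood at 11.56, 11.62 and 11.62 in IUGR F2 and at 12.08, 11.63 and 10.66 in ON F2 pools. In IUGR F1 pools it was 10.44, 11.66 and 10.46, and in ON F1 pools 9.17, 9.88 and 10.39. Pck1 rose by 1.20 ± 0.28 (adjusted p = 0.0404), and the generations overlapped through IUGR F1 pool 5 alone. Asns, asparagine synthetase, a target of the amino acid response, rose by 1.08 ± 0.25 (adjusted p = 0.0412). It stood at 6.01, 6.00 and 6.18 in IUGR F2 and at 7.70, 7.48 and 6.98 in ON F2 pools. The IUGR F1 pools had 5.11, 6.92 and 5.49 and the ON F1 pools 5.18, 5.77 and 5.38. The ON F2 pools thus held the 3 highest levels, and the difference was 1.94 in the ON and 0.22 in the IUGR lineage. The calls of Pck1 and Asns were each lost in 12 of 22 settings, with adjusted p of up to 0.117 and 0.122.

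The start regions of these 3 genes are shown because each holds a short word that a known class of factors can bind. They come from RefSeq (GRCm38.p6), run 5′ to 3′ on the gene's strand from 250 bases before to 50 after the start site, and carry the word in capitals. In Moxd1 (chr10:24223267-24223566, plus strand) it is a STAT site, TTCNNNGAA, beginning at position -150 from the start site. In Pck1 (chr2:173152823-173153122, plus strand) it is the variant cyclic AMP response element TTACGTCA at -93. In Asns (chr6:7693160-7693459, minus strand) it is the amino acid response element TGATGNAA at -23.
Moxd1: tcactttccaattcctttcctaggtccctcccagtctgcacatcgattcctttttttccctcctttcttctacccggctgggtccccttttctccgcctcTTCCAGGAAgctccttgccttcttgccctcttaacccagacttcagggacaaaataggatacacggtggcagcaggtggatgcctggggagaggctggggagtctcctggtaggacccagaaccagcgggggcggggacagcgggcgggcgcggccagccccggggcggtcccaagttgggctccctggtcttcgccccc
Pck1: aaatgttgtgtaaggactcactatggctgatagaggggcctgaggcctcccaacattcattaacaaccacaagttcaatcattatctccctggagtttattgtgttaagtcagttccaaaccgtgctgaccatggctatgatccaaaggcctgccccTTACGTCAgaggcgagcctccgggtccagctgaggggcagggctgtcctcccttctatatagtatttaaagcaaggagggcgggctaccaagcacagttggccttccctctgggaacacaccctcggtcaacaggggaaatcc
Asns: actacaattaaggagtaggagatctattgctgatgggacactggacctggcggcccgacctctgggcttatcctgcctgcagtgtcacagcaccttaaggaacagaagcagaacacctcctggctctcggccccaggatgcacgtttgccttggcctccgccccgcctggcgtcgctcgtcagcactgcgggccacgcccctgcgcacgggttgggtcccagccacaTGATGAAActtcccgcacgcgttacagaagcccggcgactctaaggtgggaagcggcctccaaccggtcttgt
The same words were counted on both strands over 158 risen, 282 fallen and 14367 genes of the whole array with a listed start region. The STAT site was present in 8.86% of risen, 9.22% of fallen and 8.57% of all genes, and the amino acid response element in 2.53%, 3.55% and 3.24%. The variant cyclic AMP response element was present in 2.53% (4 genes), 0.709% (2 genes) and 0.745%. The E-box CACGTG, which clock factors can bind and which the 3 regions above lack, was present in 13.9% (22 genes), 7.09% (20 genes) and 10.3%. Also counted were the cyclic AMP response element TGACGTCA, at 3.80%, 4.26% and 2.94%, and the D-box TTATGTAA, at 1.27%, 0.355% and 0.842%. The E-box contains the letters CG, of which start regions held a median of 21.4 in risen, 18.2 in fallen and 17 in all genes. A match is a description of these letters and not of binding.

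The 15 largest rises with no overlap between the 6 F2 and 6 F1 pools were led by Tff3, a secreted trefoil peptide. Tff3 ranged from 9.49 to 11.32 in F2 and from 7.80 to 9.17 in F1 pools and rose by 1.37 ± 0.28 (adjusted p = 0.0308). Sult5a1, a sulfotransferase, stood at 8.14, 8.26 and 8.12 in IUGR F2 and at 8.40, 8.55 and 7.92 in ON F2 pools. In IUGR F1 pools it was 7.59, 7.29 and 7.37, and in ON F1 pools 6.64, 7.47 and 6.90. All F2 pools lay above all F1 pools, and Sult5a1 rose by 1.02 ± 0.14, a 2.03-fold difference (adjusted p = 0.00763). Kyat3, a kynurenine aminotransferase of amino acid metabolism, ranged from 10.24 to 10.57 in F2 and from 9.61 to 10.01 in F1 pools. It rose by 0.58 ± 0.08 (adjusted p = 0.00933), by 0.57 in the IUGR and 0.60 in the ON lineage. Dctn6, a dynactin subunit, rose by 0.53 ± 0.06 (adjusted p = 0.00325) and Pxylp1, a phosphatase of proteoglycan assembly, by 0.51 ± 0.07 (adjusted p = 0.00763). Other rises in this group included the arsenic methyltransferase As3mt at 0.72, the mannosyltransferase Dpy19l3 at 0.70, the folliculin gene Flcn at 0.63 and the transporter Slc16a12 at 0.64. The ubiquitin ligase adaptor Klhl2 rose by 0.59, the phospholipid enzyme Gdpd1 by 0.68, the acyl-CoA synthetase Acsl4 by 0.54 and the steroid dehydrogenase Hsd3b2 by 0.50. The splicing-related protein gene Pnisr rose by 0.52. Prpf4b, a splicing kinase, rose by 0.57 on its brightest probe set, while 4 of its 6 probe sets ran the other way. Dctn6 had 1 opposing probe set of 2 and Acsl4 1 of 3. The calls of Hsd3b2 and Pnisr were lost in 13 and 12 of 22 settings. Those of Tff3, As3mt and Gdpd1 were lost in 8 each, that of Prpf4b in 7 and that of Flcn in 5. Kcnk1, a potassium leak channel named after its values were seen, rose by 1.61 ± 0.30 (adjusted p = 0.0227) with overlapping pools.

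**Figure D1:**
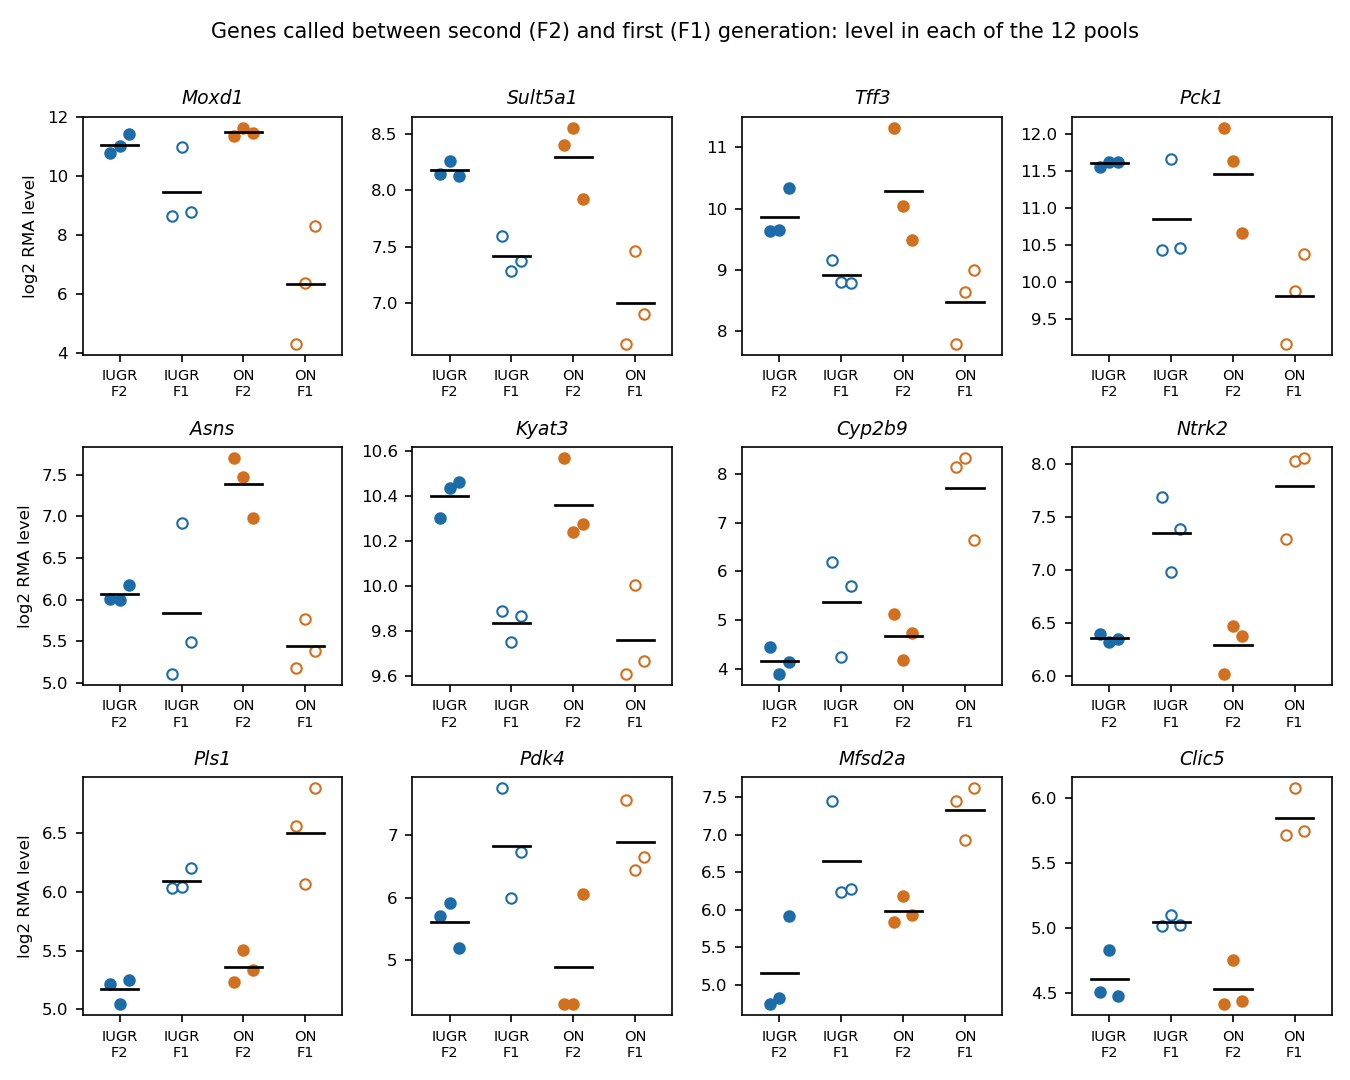
Level (log2 RMA, each panel with its own axis) of 12 called genes in each pool, with filled points for F2, open points for F1, blue for IUGR, orange for ON and bars for the mean of 3 pools. Moxd1 ranged from 10.77 to 11.65 in F2 and from 4.30 to 10.98 in F1 pools, while Ntrk2, Pls1 and Clic5 were lower in every F2 pool than in any F1 pool.

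Falls were led among the same kind of genes by Rec114, a meiotic recombination gene, which ranged from 4.06 to 6.31 in F2 and from 6.72 to 7.71 in F1 pools. Rec114 fell by 1.81 on the log2 scale, with a standard error of 0.34 (adjusted p = 0.0251). Mfsd2a, a transporter of lysophospholipids that carry long-chain fatty acids, stood at 4.74, 4.82 and 5.92 in IUGR F2 and at 5.84, 6.18 and 5.93 in ON F2 pools. The IUGR F1 pools had 7.44, 6.24 and 6.27 and the ON F1 pools 7.45, 6.92 and 7.62. The generations did not overlap, and the difference was -1.42 ± 0.24 (adjusted p = 0.0178), with -1.49 in the IUGR and -1.35 in the ON lineage. Ntrk2, the TrkB neurotrophin receptor, stood between 6.02 and 6.47 in F2 and between 6.99 and 8.06 in F1 pools. It fell by 1.25 (SE 0.15, adjusted p = 0.00325), a level 2.38-fold lower, and its 8 probe sets ran the same way. The actin-bundling protein gene Pls1 stood between 5.04 and 5.51 in F2 and between 6.04 and 6.89 in F1 pools, a difference of -1.04 ± 0.11 (adjusted p = 0.00325). The chloride channel family gene Clic5 differed by -0.87 ± 0.09 (adjusted p = 0.00325), with -0.44 in the IUGR and -1.31 in the ON lineage. Igfbp5, a binding protein of insulin-like growth factors, ranged from 5.13 to 5.83 in F2 and from 6.11 to 7.21 in F1 pools, a difference of -1.01 ± 0.16 (adjusted p = 0.0148). The remaining falls of the group lay between -0.73, for the acetylcholine receptor subunit Chrna2, and -0.51, for the sugar acid dehydrogenase Cryl1. They included the carboxylesterase Ces2e at -0.62, the fructose kinase Khk at -0.54, the chloride transporter Clcn6 at -0.53 and the matrix proteoglycan Ogn at -0.52. The call of Ogn was lost in 16 of 21 settings, both other scalings among them. Those of Ces2e and Khk were lost in 10 and 9 of 22 settings, and that of Clcn6 in 1 of 22. Magix, Plekhj1 and Tsga10 differed by -0.58, -0.57 and -0.53.

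The genes that kept their call in every setting in which they were tested included, among those named here, Sult5a1, Kyat3, Dctn6, Pxylp1, Klhl2, Rnft1 and Ddx5 on the rising side. On the falling side they were Ntrk2, Pls1, Clic5, Dusp23 and Chrna2. Each of these kept an adjusted p below 0.05 without any single pool, without pools 5, 8 and 13, under both other scalings and with the clock score. Rnft1, a RING finger gene, rose by 0.45 ± 0.06 (adjusted p = 0.0067), with F2 pools at 7.73 to 7.99 and F1 pools at 7.29 to 7.53. Dusp23, a dual-specificity phosphatase, differed by -0.48 ± 0.06 (adjusted p = 0.00325), with F2 pools at 4.68 to 4.82 and F1 pools at 5.11 to 5.36. The pools of each generation lay close together in these 2 genes, and the generations did not overlap.

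For the lists from here on, the shares over all genes were 1.13% risen and 1.93% fallen. At an unadjusted p below 0.05, 1344 of all 18193 genes were higher and 2665 lower. Among genes that differ between the sexes, 2 of 12 male-biased ones rose (16.7%) and 2 of 14 female-biased ones fell (14.3%). Of 12 measured genes higher in male liver, 10 were positive in F2 minus F1, with a median of 0.15 (0.06 within IUGR and 0.27 within ON), and Moxd1 and Susd4 rose. The list medians of the pools overlapped (0.09 to 0.28 in F2 and -0.23 to 0.15 in F1). Susd4, a complement regulator, differed by 0.31 ± 0.07 (adjusted p = 0.0389), with 0.04 in the IUGR and 0.59 in the ON lineage. Of 14 measured genes higher in female liver, 13 were negative, with a median of -0.24 (-0.11 within IUGR and -0.28 within ON), and Cyp2b9 and Fmo1 fell. The other members did not pass. Of these 14 genes, 9 had a mean below 5, and the median was -0.06 with such genes left out. Over all genes 40.6% of differences were positive and the median was -0.03. Cyp2b9, a cytochrome P450 of female liver, stood at 4.44, 3.89 and 4.14 in IUGR F2 and at 5.12, 4.18 and 4.74 in ON F2 pools. In IUGR F1 pools it was 6.19, 4.23 and 5.71, and in ON F1 pools 8.16, 8.34 and 6.66. The ON F1 pools stood above all others, IUGR F1 pool 5 lay within the F2 range, and the difference was -2.13 ± 0.34 (adjusted p = 0.0153), 4.38-fold lower. The flavin monooxygenase Fmo1 differed by -0.28 ± 0.06 (adjusted p = 0.0399), with 0.02 in the IUGR and -0.58 in the ON lineage. The calls of Susd4 and Fmo1 were lost in 12 and 15 of 22 settings. In the growth hormone and IGF list 6 of 11 genes were positive (median 0.01) and limma called 0, with 2 higher at an unadjusted p below 0.05. Its members with the smallest p were the signalling inhibitor Socs2 at 0.90 ± 0.24 (adjusted p = 0.0584) and Igfbp2 at 0.47 ± 0.15 (adjusted p = 0.101). Socs2 was higher in each of the 6 F2 pools (8.51 to 9.60) than in the F1 pools (6.96 to 8.49). Igf1, the growth hormone target made by hepatocytes, differed by -0.10 ± 0.08 (adjusted p = 0.51).

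Across the lists of fatty acid synthesis, sugar use and lipid droplets, 3 genes fell and 0 rose. The called share was 0%, 22.2% and 5% in turn, against 3.06% of all genes. Of 21 fatty acid synthesis genes, 20 were negative, with a median of -0.37, and limma called 0, while 10 were lower at an unadjusted p below 0.05. The list median per pool ranged from -0.71 to 0.03 in F2 and from -0.25 to 0.74 in F1 pools, so the generations overlapped, and ON F1 pool 7 stood alone at the top. Fasn, the fatty acid synthase, stood at 11.36, 11.10 and 10.75 in IUGR F2 and at 11.06, 11.57 and 11.80 in ON F2 pools. The IUGR F1 pools had 12.04, 11.93 and 11.47 and the ON F1 pools 12.81, 11.45 and 11.43, a difference of -0.58 ± 0.23 (adjusted p = 0.164). The desaturase Scd1 differed by -0.33 ± 0.10 (adjusted p = 0.0818), the citrate carrier Slc25a1 by -0.26 ± 0.07 (adjusted p = 0.0669) and the regulator Srebf1 by -0.34 ± 0.16 (adjusted p = 0.23). Of 9 genes of sugar use, 7 were negative, with a median of -0.23, and 2 fell, Khk and the glycolytic enzyme Pfkl. Khk ranged from 10.58 to 11.06 in F2 and from 11.11 to 11.76 in F1 pools, and Pfkl differed by -0.34 ± 0.06 (adjusted p = 0.019) with 1 of its 3 probe sets opposite. Of 20 lipid droplet genes, 16 were negative, with a median of -0.18, and 1 fell. This was the acyltransferase Mogat1 at -0.80 ± 0.18 (adjusted p = 0.036, lost in 9 of 21 settings).

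Of 22 genes of fatty acid oxidation and targets of the fasting regulator PPARA, 18 were negative, with a median of -0.21 (-0.08 within IUGR and -0.22 within ON). Of the 22, 3 fell (13.6%, against 1.93% of all genes). Pdk4, a kinase that blocks the use of pyruvate, stood at 5.71, 5.92 and 5.20 in IUGR F2 and at 4.30, 4.30 and 6.06 in ON F2 pools. In IUGR F1 pools it was 7.75, 5.99 and 6.73, and in ON F1 pools 7.56, 6.44 and 6.65, and the difference was -1.60 ± 0.35 (adjusted p = 0.0359). The generations overlapped through 1 pair, ON F2 pool 15 above IUGR F1 pool 5. Acot2, a mitochondrial thioesterase, differed by -0.84 ± 0.18 (adjusted p = 0.0355), and Hadha, a subunit of the trifunctional enzyme of fat oxidation, by -0.27 ± 0.06 (adjusted p = 0.037). The calls of Pdk4, Acot2 and Hadha were lost in 9, 11 and 12 of 22 settings. Cpt1a, which admits fatty acids to mitochondria, went the other way at 0.25 ± 0.11 (adjusted p = 0.207). In the respiratory chain 26 of 32 genes were negative (median -0.08) and 0 were called by limma, with 9 lower at an unadjusted p below 0.05. Of 19 targets of the drug sensors CAR and PXR, 14 were negative, with a median of -0.19, and the exporter Abcc3 fell (-0.60 ± 0.14, adjusted p = 0.0396, lost in 13 of 22 settings). The list median was -0.02 within IUGR and -0.29 within ON, and Abcc3 differed by -0.24 and -0.97 in turn. Of 18 genes of glucose output and insulin signalling, 11 were positive, with a median of 0.03, and Pck1 alone was called. G6pc, which frees glucose for release, differed by -0.25 ± 0.11 (adjusted p = 0.215), the insulin receptor Insr by 0.21 ± 0.07 (adjusted p = 0.0986) and Irs2 by 0.03 ± 0.17 (adjusted p = 0.937). Of 20 lipoprotein genes, 10 were positive, with a median of 0.00 (0.04 with centred arrays), and the HDL receptor Scarb1 rose (0.56 ± 0.11, adjusted p = 0.0273, lost in 9 of 22 settings). Among bile acid genes 12 of 18 were positive (median 0.15) and 0 were called by limma, with 8 higher and 1 lower at an unadjusted p below 0.05. Of these, the bile acid pump Abcb11 differed by 0.34 ± 0.10 (adjusted p = 0.0791) and Cyp7a1, the rate-limiting enzyme of synthesis, by 0.39 ± 0.16 (adjusted p = 0.183).

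Of 24 splicing and RNA binding genes, 23 were positive, with a median of 0.17 (0.09 without pools 5, 8 and 13). Of the 24, 2 rose (8.33%, against 1.13% of all genes). The list median per pool ranged from 0.14 to 0.30 in F2 and from -0.17 to 0.10 in F1 pools, without overlap. The RNA helicase Ddx5 ranged from 10.49 to 10.95 in F2 and from 10.07 to 10.46 in F1 pools and rose by 0.44 ± 0.06 (adjusted p = 0.00836). The splicing factor Srsf1 rose by 0.28 ± 0.06 (adjusted p = 0.0315, lost in 10 of 22 settings). 1 of the 6 Ddx5 probe sets and 1 of the 7 Srsf1 probe sets ran the other way. Of 17 complement genes, 15 were positive, with a median of 0.12, and 2 rose (11.8%, against 1.13% of all genes). The 2 risen genes were C2 (0.28 ± 0.07, adjusted p = 0.0434, lost in 15 of 22 settings) and Hc (0.50 ± 0.07, adjusted p = 0.00991). Hc, the gene of complement C5, stood at 12.63, 12.69 and 12.65 in IUGR F2 and at 13.01, 12.88 and 12.82 in ON F2 pools. The IUGR F1 pools had 12.51, 12.72 and 12.49 and the ON F1 pools 11.78, 12.05 and 12.14. The IUGR pools of both generations overlapped, and the difference came to 0.08 in the IUGR and 0.91 in the ON lineage. The difference between these differences was -0.83, which did not pass (adjusted p = 0.157). Acute phase genes had 22 of 24 positive, with a median of 0.21 that lay between 0.09, reached with the clock score and without ON F2 pool 13, and 0.33 over the other settings, and limma called 0, with 3 higher at an unadjusted p below 0.05. Their list medians ran from -0.02 to 0.60 in F2 and from -0.42 to 0.23 in F1 pools. Of the unfolded protein response, 2 of 22 genes rose (9.09%), while 15 of 22 were negative and the median was -0.03 (0.01 with centred arrays). The risen ones were the regulator Xbp1 (0.37 ± 0.08, adjusted p = 0.0322, lost in 9 of 22 settings) and the chaperone Hsp90b1 (0.36 ± 0.08, adjusted p = 0.038, lost in 12 of 22 settings). Of 19 ATF4 amino acid response genes, 10 were negative, with a median of -0.02 (0.02 with centred arrays and 0.01 after the second quantile normalisation). Of the 19, 3 rose (15.8%, against 1.13% of all genes). These were Asns, the amino acid transporter Slc7a5 (0.37 ± 0.07, adjusted p = 0.0273) and the translation repressor Eif4ebp1 (0.31 ± 0.06, adjusted p = 0.0251).

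**Figure D2:**
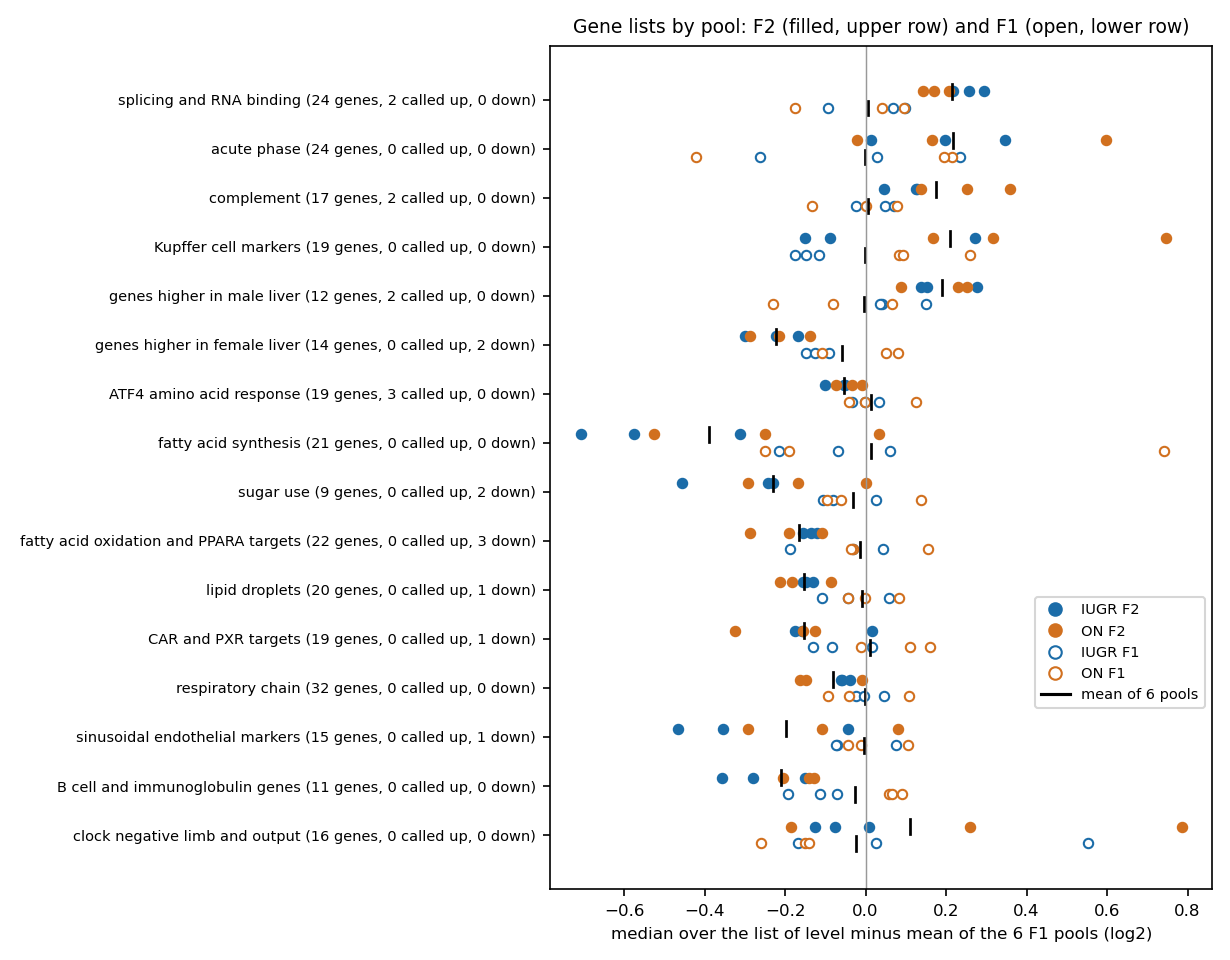
Median over each gene list of the level minus the mean of the 6 F1 pools (log2), 1 point per pool, with F2 filled in the upper row, F1 open in the lower row, blue for IUGR, orange for ON and ticks for the mean of 6 pools. The splicing list ran from 0.14 to 0.30 in F2 and from -0.17 to 0.10 in F1 pools, while fatty acid synthesis ran from -0.71 to 0.03 in F2 and from -0.25 to 0.74 in F1 pools.

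Markers of cell types were compared in the same way, beside 1.13% of all genes risen and 1.93% fallen. At an unadjusted p below 0.05, 1344 of all 18193 genes were higher and 2665 lower. In bulk liver, fewer cells of a type and less RNA per cell cannot be told apart. Hepatocyte markers had a median level of 11.7 and a median difference of 0.07, with 9 of 13 positive, 0 called by limma and 2 higher at an unadjusted p below 0.05. Of 15 sinusoidal endothelial markers, 13 were negative, with a median of -0.21 (-0.09 with the clock score), and Cdh5, the endothelial cadherin, fell. Cdh5 ranged from 5.90 to 6.21 in F2 and from 6.23 to 6.51 in F1 pools, a difference of -0.36 ± 0.06 (adjusted p = 0.0189). Kupffer cell markers had 18 of 19 positive, with a median of 0.18, 0 called by limma and 5 higher at an unadjusted p below 0.05, and their pool medians ran from -0.15 to 0.75 in F2 and from -0.18 to 0.26 in F1. The macrophage receptor Vsig4 differed by 0.46 ± 0.12 (adjusted p = 0.0617) and the complement gene C1qa by 0.37 ± 0.11 (adjusted p = 0.0767). B cell genes had 8 of 11 negative, with a median of -0.23, 0 called by limma and 6 lower at an unadjusted p below 0.05. Of 18 stellate and matrix markers, 12 were negative, with a list median of -0.19 within IUGR and 0.05 within ON. Des fell by 0.27 (SE 0.06, adjusted p = 0.0433), with 1 of its 2 probe sets opposite and a difference of -0.08 (adjusted p = 0.509) with their mean. Of 10 bile duct markers, 8 were negative and Sox9 differed by -0.38 ± 0.09 (adjusted p = 0.0427), with 0.06 in the IUGR and -0.83 in the ON lineage. Of 12 T and NK cell genes, 9 were negative, with a median of -0.10, and Cd3d fell by 0.20 (SE 0.05, adjusted p = 0.0464). The calls of Des and Sox9 were lost in 17 and 18 of 22 settings and that of Cd3d in 19 of 21, both other scalings among them. All 14 exocrine pancreas genes were positive, with a median of 0.62, and limma called 0, with 0 at an unadjusted p below 0.05. Their median was 3.91 in ON F2 pool 13, from -0.05 to 0.10 in the other F2 pools and from -0.05 to 0.09 in F1 pools. Without pools 5, 8 and 13 the median was 0.03.

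The lists of this paragraph gave 0 or 1 call each, while 3.06% of all genes were called. Of 17 glucocorticoid response genes and metallothioneins, 12 were positive, with a median of 0.22, and Pck1 alone was called. Interferon-stimulated genes had a median of 0.25 within IUGR and -0.52 within ON, and limma called 0 of 27, with 4 lower at an unadjusted p below 0.05. At that p, 1344 of all 18193 genes were higher and 2665 lower. The interferon list median reached 0.70 in ON F1 pool 8, and without pools 5, 8 and 13 the averaged median was 0.09, against -0.07 with them. Among 17 heat shock genes 9 were positive and 8 negative, with a median of 0.03, and the co-chaperone Bag3 fell (-0.35 ± 0.09, adjusted p = 0.0449, lost in 18 of 22 settings). Bag3 differed by -0.05 in the IUGR and -0.66 in the ON lineage. Of 31 ribosomal protein genes 1 was called (3.23%, against 3.06% of all genes), with a list median of 0.01. This was Rps20, which rose (0.30 ± 0.07, adjusted p = 0.0398, lost in 12 of 22 settings). Of 18 immediate early genes 9 were positive and 9 negative, with a median of -0.02 (0.02 with centred arrays), and Fosb rose by 0.28 ± 0.07 (adjusted p = 0.0447, lost in 13 of 21 settings). Skeletal muscle genes had 12 of 13 negative, with a median of -0.11 and with all 13 at a mean below 5, and the median was 0.02 without pools 5, 8 and 13. In the lists of cholesterol synthesis, NRF2 targets, the methionine cycle, the proteasome, the cell cycle, the urea cycle, neutrophils, adipocytes and erythroid cells limma called 0 genes, and their medians lay between -0.08 and 0.05. At an unadjusted p below 0.05 the methionine cycle had 4 of 19 genes lower, and NRF2 targets 3 of 17 higher and 4 lower, and each of the others had at most 4.

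Of genes that bear on inheritance without change of sequence, limma called 2 of 22 imprinted ones (9.09%) and 0 of 26 of the methylation machinery. Over all genes the share was 3.06%. Of 26 genes of DNA and histone methylation, 12 were positive, with a median of -0.01 that became 0.03 with centred arrays and 0.02 after the second quantile normalisation. Limma called 0 of them, with 1 higher and 4 lower at an unadjusted p below 0.05. At that p, 1344 of all 18193 genes were higher and 2665 lower. The methyltransferases Dnmt1, Dnmt3a and Dnmt3b differed by 0.00 ± 0.07, 0.09 ± 0.15 and -0.29 ± 0.15, and the demethylation enzyme Tet2 by -0.05 ± 0.10. Dnmt3b stood at 6.01, 5.71 and 6.51 in ON F2 and at 6.84, 6.76 and 7.04 in ON F1 pools. It stood at 7.13, 6.79 and 6.89 in IUGR F2 and at 7.08, 6.26 and 6.83 in IUGR F1 pools, so the lineages ran in opposite directions, short of the threshold (interaction adjusted p = 0.461). Of 22 imprinted genes, Impact rose (0.31 ± 0.06, adjusted p = 0.026) with 2 of its 3 probe sets opposite, and Ndn fell (-0.31 ± 0.07, adjusted p = 0.0412) with 2 of its 8 opposite. The call of Ndn was lost in 18 of 22 settings, and with the mean of probe sets Impact differed by 0.01 (adjusted p = 0.911) and Ndn by -0.07 (adjusted p = 0.43). The fetal growth factor Igf2 differed by -0.07 ± 0.06 (adjusted p = 0.462).

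The difference between generations was then read in each lineage. Within ON, 188 genes were called (1.03%), 63 higher (0.346%) and 125 lower (0.687%) in F2. With centred arrays these were 104 higher and 88 lower, and after the second quantile normalisation 91 higher and 86 lower. Within IUGR 4 were called (0.022%), all higher, and these were Adi1, Mtif2, Sppl2a and Dctn6. Single pools weighed on both counts. Within ON there were 22 calls without ON F1 pool 7, 30 and 29 without ON F2 pools 13 and 14, 74 and 79 without IUGR F1 pools 4 and 6, and 77, 83 and 104 without IUGR F2 pools 10, 11 and 12, the IUGR pools entering only the estimate of spread. Within IUGR limma called 0 without IUGR F1 pool 4, 5 or 6 or IUGR F2 pool 10, where 1657, 1836, 1658 and 1567 genes had an unadjusted p below 0.05. There were 2 calls without IUGR F2 pool 11, 1 without pool 12, and 2 without each of the ON F2 pools. Of the called genes, 117 of 205 risen and 258 of 351 fallen ones had the larger difference in ON, as had 10348 of all 18193. The lineages share no array, so the sign in each can be read against the other. They share 1 estimate of spread per gene, so genes called in ON were selected for a small spread in IUGR too. A small p in both is therefore not independent. Of the 188 genes called within ON, 151 (80.3%) had the same sign in IUGR, and 67 (35.6%) had the same sign and an unadjusted p below 0.05 there. Over all genes these shares were 62.4% and 8.86%. By direction in ON, the sign was shared by 46 of the 63 higher genes (73.0%) and 105 of the 125 lower ones (84%). The median difference of all genes was -0.03 in each lineage and 0.01 in each with centred arrays, so a shift that depends on scaling enters these shares. Across all 18193 genes the 2 sets of differences had a Pearson r of 0.324 (Spearman 0.325), given as a description, since genes are not independent and each generation's pools may share a round of processing. The median size of the difference for the 188 genes was 0.175 in IUGR and 0.546 in ON, the lineage in which they were selected. Olfm3 differed by -0.20 in IUGR and -1.19 in ON, and the pseudouridine synthase family gene Pus7l by -0.16 in IUGR and -0.67 in ON. Sppl2a, a protease of membrane proteins, ran the same way in both, at 0.53 in IUGR and 0.34 in ON (adjusted p = 0.0314 and 0.0462).

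**Figure D3:**
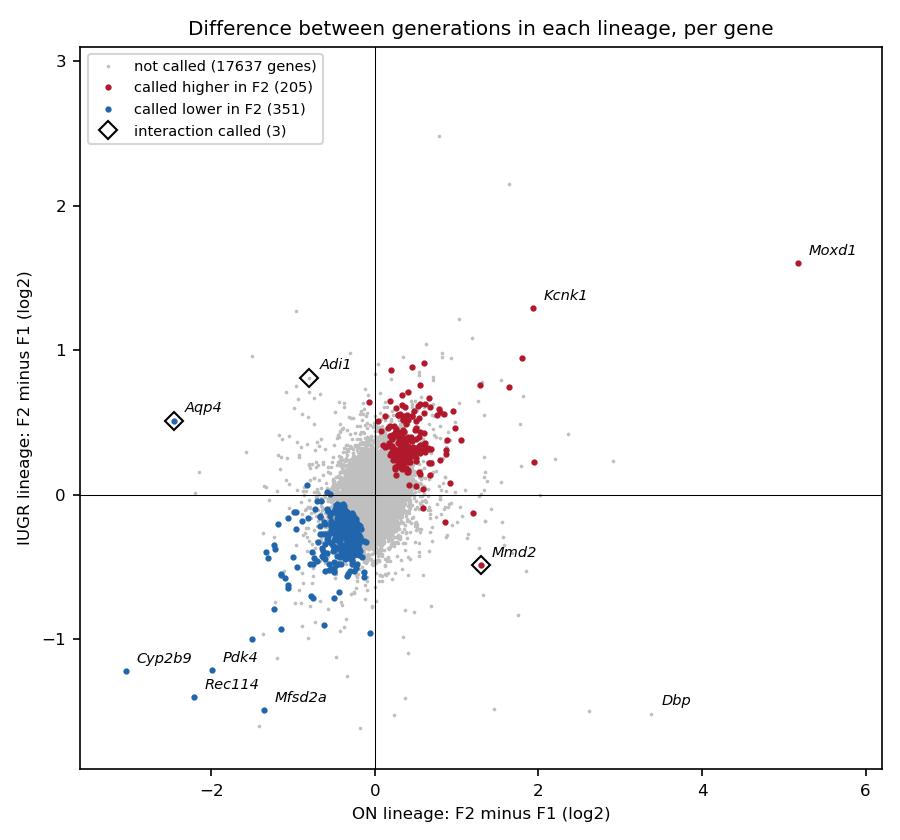
Difference F2 minus F1 (log2) in the ON lineage (horizontal axis) and in the IUGR lineage (vertical axis), 1 point per gene, with called genes in red (205 higher) and blue (351 lower) and the 3 interaction genes ringed by diamonds. Moxd1 lies at 5.17 in ON and 1.60 in IUGR, Cyp2b9 at -3.04 in ON and -1.22 in IUGR, and Adi1, Mmd2 and Aqp4 have opposite signs in the lineages.

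The test of whether the generations differed unequally in the lineages called 3 genes (0.0165%), 2 with a positive interaction (0.011%) and 1 with a negative one (0.0055%), each with opposite signs in the lineages. Adi1, an enzyme that salvages methionine, stood at 9.02, 8.97 and 9.30 in IUGR F2 and at 8.18, 8.32 and 8.36 in IUGR F1 pools. It stood at 8.31, 8.34 and 8.38 in ON F2 and at 9.17, 9.10 and 9.16 in ON F1 pools. IUGR F2 and ON F1 pools shared a high range and the other 6 a low one, and the interaction was 1.61 (adjusted p = 0.000338). It was called in each of the 21 other settings run, with adjusted p from 0.000182 to 0.024, while the difference averaged over lineages was 0.00 ± 0.06. Mmd2, a membrane receptor family gene, stood at 5.29, 5.38 and 5.62 in IUGR F2 and at 5.97, 6.06 and 5.72 in IUGR F1 pools. It stood at 6.79, 6.35 and 6.71 in ON F2 and at 5.40, 5.11 and 5.46 in ON F1 pools, an interaction of -1.78 (adjusted p = 0.00688). The water channel Aqp4 stood at 5.45, 5.35 and 5.13 in IUGR F2 and at 5.10, 4.69 and 4.60 in IUGR F1 pools. It stood at 3.69, 3.72 and 4.69 in ON F2 and at 6.95, 5.89 and 6.62 in ON F1 pools, an interaction of 2.97 (adjusted p = 0.0358). In Mmd2 and Aqp4 the pools of the generations did not overlap in either lineage. Both were also among the 556 genes called over the averaged lineages, Aqp4 as lower (-0.97, limma adjusted p = 0.0308) and Mmd2 as higher. Those averaged calls do not describe the IUGR lineage, which ran the other way. Of the 556 called genes, 547 had the same sign in both lineages, against 62.4% of all genes. They were called on the average of the lineages, which favours a shared sign, so this count is no test of agreement. The interaction of Mmd2 missed the threshold in 3 of 21 settings and that of Aqp4 in 14 of 21, the clock score among them (adjusted p = 0.123 and 0.888). With the mean of its 3 probe sets the interaction of Aqp4 was 1.06 (adjusted p = 0.166). The mitochondrial initiation factor Mtif2 and the zinc finger gene Zkscan5 came next, with interactions of 0.71 and -0.76 (adjusted p = 0.0844 each). Between the lineages, averaged over generations, 0 of 18193 genes were called by limma, the smallest adjusted p was 0.199, and 1504 genes had an unadjusted p below 0.05.

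The clock genes of the panel were not called over both lineages. Dbp, which peaks once a day, stood at 5.46, 6.18 and 7.97 in IUGR F2 and at 9.84, 10.71 and 6.54 in ON F2 pools. In IUGR F1 pools it was 5.30, 9.77 and 9.08, and in ON F1 pools 5.40, 5.34 and 6.23. 2 ON F2 and 2 IUGR F1 pools were thus high, and the difference was 0.93 ± 0.82 (adjusted p = 0.539), with -1.52 in IUGR and 3.37 in ON. The repressors Per2 and Nr1d1 differed by -0.05 ± 0.26 and 0.01 ± 0.24, and the activator Arntl, also called Bmal1, by -0.44 ± 0.29. Npas2, its partner, differed by -1.09 ± 0.29 (adjusted p = 0.0614), with 0.01 in IUGR and -2.19 in ON, where it was called (adjusted p = 0.035). The clock score averaged -0.56 ± 0.17 in IUGR F2 and 0.23 ± 1.27 in IUGR F1 pools, and 1.26 ± 1.63 in ON F2 and -1.26 ± 0.34 in ON F1 pools (SD, n = 3 each). The clock score thus moved with generation in the ON lineage. With the score as a covariate limma called 0 genes within ON, with a smallest adjusted p of 0.0519 and 1242 genes at an unadjusted p below 0.05.

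**Figure D4:**
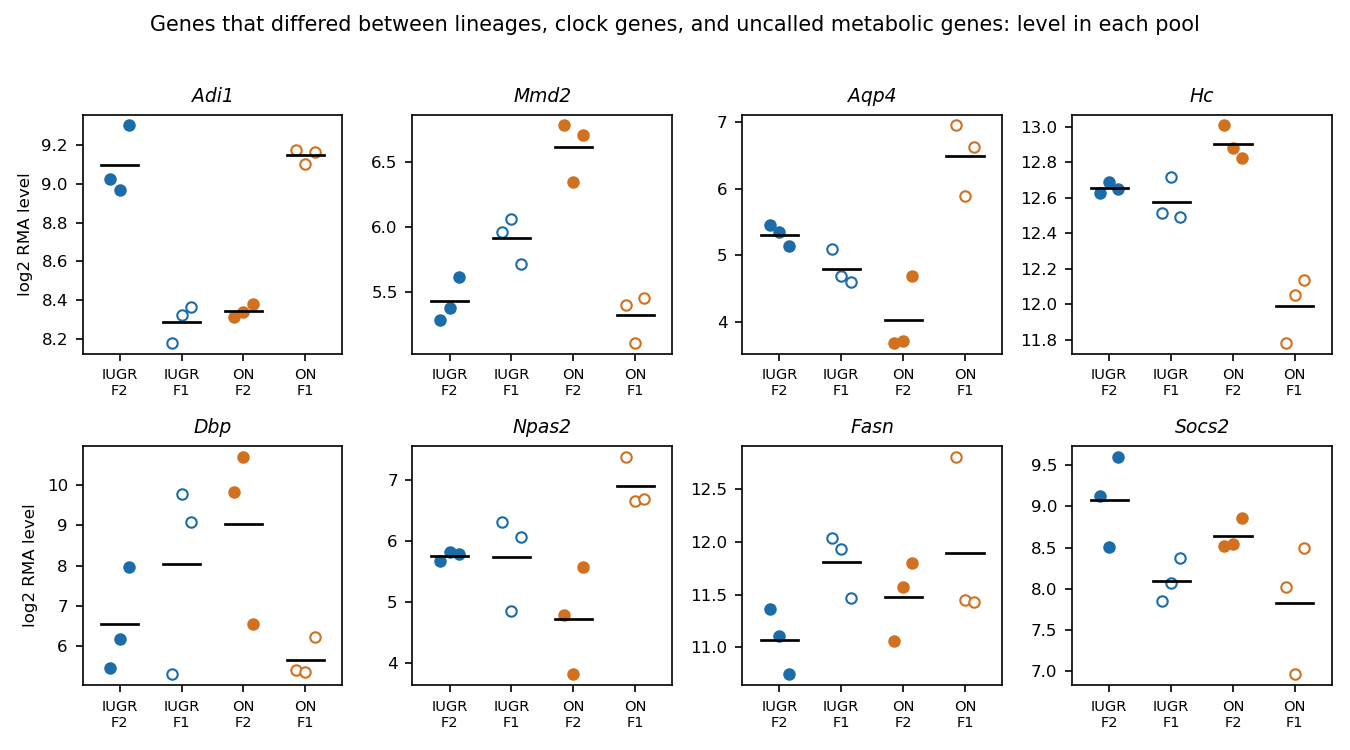
Level (log2 RMA, each panel with its own axis) of 8 genes in each pool, with filled points for F2, open points for F1, blue for IUGR, orange for ON and bars for the mean of 3 pools. Adi1 was high in IUGR F2 (8.97 to 9.30) and ON F1 (9.10 to 9.17) and low in the other pools, and Dbp ranged from 5.30 to 10.71.

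The called genes were spread over the chromosomes, with a share called between 2.27% on X and 3.95% on chromosome 11 among the autosomes and X. Risen genes had a median length of 30.2 kb, fallen genes of 17.9 kb and all genes of 20.3 kb. Median GC content of the start regions was 60.3% for risen, 59.6% for fallen and 58.7% for all genes. These features were not used to choose the genes and are given as descriptions.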

How the data were processed

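Whole-liver RNA of mice was read on Affymetrix mouse expression arrays, 1 per pool, after freezing in liquid nitrogen and Trizol extraction, per the labels' protocols. Each deposited value is a log2 level of a probe set. The submitters' processing notes name RMA as the authors' method, which corrects background, quantile-normalises the arrays and summarises probes, so shifts shared by most genes are removed and dim genes are compressed. The sources used here do not name its version. Array medians over probe sets lay between 4.61 and 4.68.

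Of 45101 probe sets 64 controls were left out. Of the rest, 34945 had 1 gene symbol, 932 several and 9160 none, and only the first kind named genes. RefSeq (GRCm38.p6) held the Entrez identifier of 34741, with 0 new symbols. The level of each of 18193 genes was that of its probe set with the highest mean over the 12 arrays (9010 genes had more than 1). Array pairs correlated between 0.983 and 0.995 across probe sets, and 0 were identical. Groups came from the sample titles.

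In R 4.3.3 with limma 3.58.1, 4 group means were fitted to the 12 arrays, with empirical Bayes moderation (4.55 prior and 8 residual degrees of freedom), two-sided p-values and the Benjamini-Hochberg method across all of them. The median standard error was 0.072, and precision is limited by how many arrays there are. The fit was tested on simulated data. Named genes were the 15 largest rises and falls called without overlap of pools, up to 4 called members per list (otherwise up to 2 with the smallest p), the 5 per direction with the smallest p for other contrasts, and a fixed panel. The genes and the 44 lists, with 772 of 862 entries measured, were chosen with earlier results of these data known. Alternatives covered the spread, model, filter, probe set rule, scaling, clock, RNA length and single pools. Some genes were not analysed here.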

Additional observations from a re-analysis of the deposited data

Results flagged for a closer look

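Among 238 sets of 6 pools of 1 generation (genes and list medians), 18 (7.6%) had 1 pool far from the other 5, where chance flags about 1 in 20. Pool 5 was the distant one in 5 sets, pool 13 in 4, pools 8 and 15 in 3 each, and pools 7, 9 and 14 in 1 each.

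In ON F2 pool 13, Abcc3 stood at 8.30 (other F2 pools 8.98 to 9.19), As3mt at 7.62 (6.65 to 6.92) and Ntrk2 at 6.02 (6.32 to 6.47), and the exocrine pancreas list at 3.91 (-0.05 to 0.10). In ON F2 pool 15, Des stood at 5.59 (5.35 to 5.40), Ndn at 5.24 (4.86 to 4.97) and Pck1 at 10.66 (11.56 to 12.08). The clock positive limb stood at -1.31 in ON F2 pool 14. Among F1 pools, Asns stood at 6.92 in IUGR F1 pool 5 (other F1 pools 5.11 to 5.77) and Scarb1 at 10.58 in ON F1 pool 9 (9.95 to 10.11). In IUGR F1 pool 5 the clock negative limb stood at 0.55, the clock positive limb at -0.61, glucocorticoid response genes at 0.35 and skeletal muscle genes at 0.43. In ON F1 pool 8 the NRF2 list stood at 0.21, interferon-stimulated genes at 0.70 and cell cycle genes at 0.23, and in ON F1 pool 7 fatty acid synthesis stood at 0.74. List values are medians relative to the mean of the 6 F1 pools.

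The difference between generations was unequal in the lineages, by the interaction test, for Adi1 (1.61), Aqp4 (2.97) and Mmd2 (-1.78).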

How the results depend on the processing

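No paired analysis was possible because the pool numbers run from 4 to 15 and no 2 groups share one. The count over both lineages (556) was 364 with the mean of probe sets, 25 with the clock score as covariate and 265 without pools 5, 8 and 13, and it ranged from 93 to 614 with 1 pool left out. The interaction count (3) was 1 with the mean of probe sets and 5 without pools 5, 8 and 13, and 2 to 4 with 1 pool left out. The count within IUGR (4) was 2 with all 15 arrays for the spread, 2 with the mean of probe sets, 0 with actin 3' minus 5' as covariate and 1 without pools 5, 8 and 13, and 0 to 6 with 1 pool left out. The count within ON (188) was 0 with the clock score and 42 without pools 5, 8 and 13, and 22 to 203 with 1 pool left out. The cause of these shifts was not tested, except that leaving out pools leaves fewer samples. Of 75 named called genes, 0 reversed in any setting, 15 kept their call with the clock score, 50 with the mean of probe sets and 47 without pools 5, 8 and 13. Of 44 list medians, 24 kept their sign in every setting. With a filter above 5, 10388 genes were tested and 676 called.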
